A study of Homo sapiens with 24 samples.

Results

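Loss of COPZ1 was followed in TPC-1 cells, a line from a human papillary thyroid carcinoma, by comparing 3 wells transfected with siCOPZ1 with 3 wells transfected with a non-targeting control, all collected after 72 h. These 6 of 24 arrays were chosen by their sample titles, and all 18632 genes of the deposited table entered the comparison. The siCOPZ1 reagent is an esiRNA, many short duplexes that an enzyme cuts out of 1 long RNA, and the control (siNT) is a commercial non-targeting siRNA, so the kind of reagent changes together with the depletion and the effects of the 2 cannot be told apart. Both were used at 20 nM with a lipid reagent, in DMEM with serum. The other arrays hold TPC-1 at 48 h and Nthy-ori 3-1, an SV40-immortalised line from normal follicular cells of the thyroid, grown in RPMI medium, with the same 2 reagents, and they serve here only to share the estimate of spread and to show where the late TPC-1 response differs. Replicates were triplicate wells with no statement that they came from separate cultures, so the p-values cover the variation among wells within groups alone. That variation is 1 spread per gene shared over the 8 groups of all 24 arrays. The limma p-values and the standard errors (SE) of differences therefore do not measure the spread of these 6 wells by themselves. Levels and differences are on the log2 scale, differences are siCOPZ1 minus siNT, and a gene is called where limma's adjusted p (Benjamini and Hochberg over all genes) lies below 0.05.

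COPZ1 encodes a zeta subunit of COPI, the protein coat that buds vesicles from Golgi membranes and returns proteins to the endoplasmic reticulum, and COPZ2 encodes the alternative zeta subunit. Cells that lose the coat have difficulty keeping the Golgi intact and secreting proteins, and tumour lines with little COPZ2 have been described as dependent on COPZ1. Much of what such cells make for export, the growth factors, matrix proteins, adhesion receptors and transporters of the plasma membrane, has to pass through this system.

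The targeted gene was lower in the siCOPZ1 wells. COPZ1 (ENSG00000111481) stood at 8.48, 9.23 and 9.14 with siCOPZ1, against 11.07, 11.15 and 11.15 with siNT. The highest depleted well lay under the lowest control, the difference was -2.17 ± 0.23 (SE, 3 wells per group, limma adjusted p = 1.83e-06) or 22.2% of the siNT level, and a two-sided exact permutation test gave p = 0.1, its lower limit with 3 wells a group. COPZ2 was at 7.63, 7.52 and 7.37 with siCOPZ1 and at 7.49, 7.94 and 7.75 with siNT, groups that overlap, and was not called (-0.22 ± 0.14). The 95th percentile of the mean levels of 370 olfactory and taste receptor genes, which few cells outside sensory tissue express, is 5.51, and values below it are called dim here. Of 18 thyroid identity genes, 7 stood above this level in siNT wells, among them the transcription factors PAX8 at 12.4 and GLIS3 at 10.4, while the thyrotropin receptor TSHR (4.34) and the iodide transporter SLC5A5 (4.47) were dim. FOXE1, another thyroid transcription factor, was the only called member, at 7.45 with siCOPZ1 and 8.35 with siNT, a difference of -0.90 whose call was lost without siCOPZ1 array 2 (adjusted p = 0.0775) or siNT array 1 (0.0762). PAX8 itself was not called, with a difference of -0.03, and KRT18, an epithelial keratin chosen after its values were seen, was at 8.69 and 8.85 (-0.16, not called).

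Markers of other cell types were weighed by the log2 of their summed linear levels per well. The sum over 10 leukocyte markers ran from 8.37 to 8.54 with siCOPZ1, against 8.30 to 8.72 with siNT, and the sum over 6 endothelial markers from 7.73 to 7.91, against 7.53 to 8.24. The 8 fibroblast markers summed to 11.63 to 12.29 with siCOPZ1 and to 12.12 to 12.55 with siNT, most of it from the matrix proteoglycan LUM, at 12.20, 11.47 and 11.95 against 12.18, 11.95 and 12.42. The 6 neural markers summed to 8.43 to 8.60 with siCOPZ1 and to 8.63 to 8.94 with siNT, groups that did not overlap, although none of the 6 was called. The sum over 7 epithelial markers ran from 12.11 to 12.35 with siCOPZ1, against 11.46 to 12.21 with siNT, although 5 of the 7 had a difference below 0 and their median was -0.42. The called members of these 5 lists, chosen for mention after their values were seen, were the kidney and thyroid cadherin CDH16 (-1.09 ± 0.19), the PDGF receptor PDGFRB (-1.50 ± 0.21) and the dim leukocyte marker CD14 (-0.51 ± 0.17). The CD14 call was lost in each of the 6 fits that left out 1 array, with adjusted p between 0.0520 and 0.157. The part of such markers in the results below was not tested, and in bulk samples fewer cells of a kind and less RNA per cell cannot be told apart.

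The late response had about as many falls as rises in the main fit, and more rises (1501) than falls (1211) with each array centred on its median. The called genes numbered 2692 of 18632 (14.4%), of which 1310 were higher (7.03% of all) and 1382 lower (7.42%), and these shares are the background for the gene lists below. The median fall was -0.82 with quartiles at -1.15 and -0.62, 486 genes fell at least 2-fold and 72 at least 4-fold, while the median rise was 0.79, with 401 genes up at least 2-fold and 78 at least 4-fold. Falls came mostly from genes with measurable expression, as a gene at background has little room to fall, and rises did likewise. In siNT wells the median level was 8.47 for the genes that fell, 8.05 for those that rose and 6.67 for all genes. Dim there were 6.95% of the falls, 11.8% of the rises and 33.8% of all genes. The siCOPZ1 mean was dim for part of the genes that fell, and there the size of the fall is limited by background. The median difference over all genes was -0.0050, and groups did not overlap for 5385 genes (28.9%), the background for each statement below that wells of the 2 groups are apart. A fit to these 6 arrays alone called 1507 genes and shared 1438 of them with the 2692, and no single array decided it, since the fits that left out 1 array gave 1925 to 2368. A total of 64 gene lists, drawn up by family or pathway with earlier results of these data known, are described by their counts and medians and not tested as lists. These counts depend on the arrays in the fit, since of 52 list counts of 4 or more 29 moved by over 1.5 times with only these 6 arrays and 27 with only the 12 TPC-1 arrays. In the plot of called shares by list, the actin and contractile list, semaphorins, tetraspanins and WNT genes stood mainly on the side of falls. Ribosome biogenesis, serpins and glycolysis stood on the side of rises. For glycolysis this rests on 4 of 29 genes, and on 1 with only these 6 arrays.

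**Figure D1:**
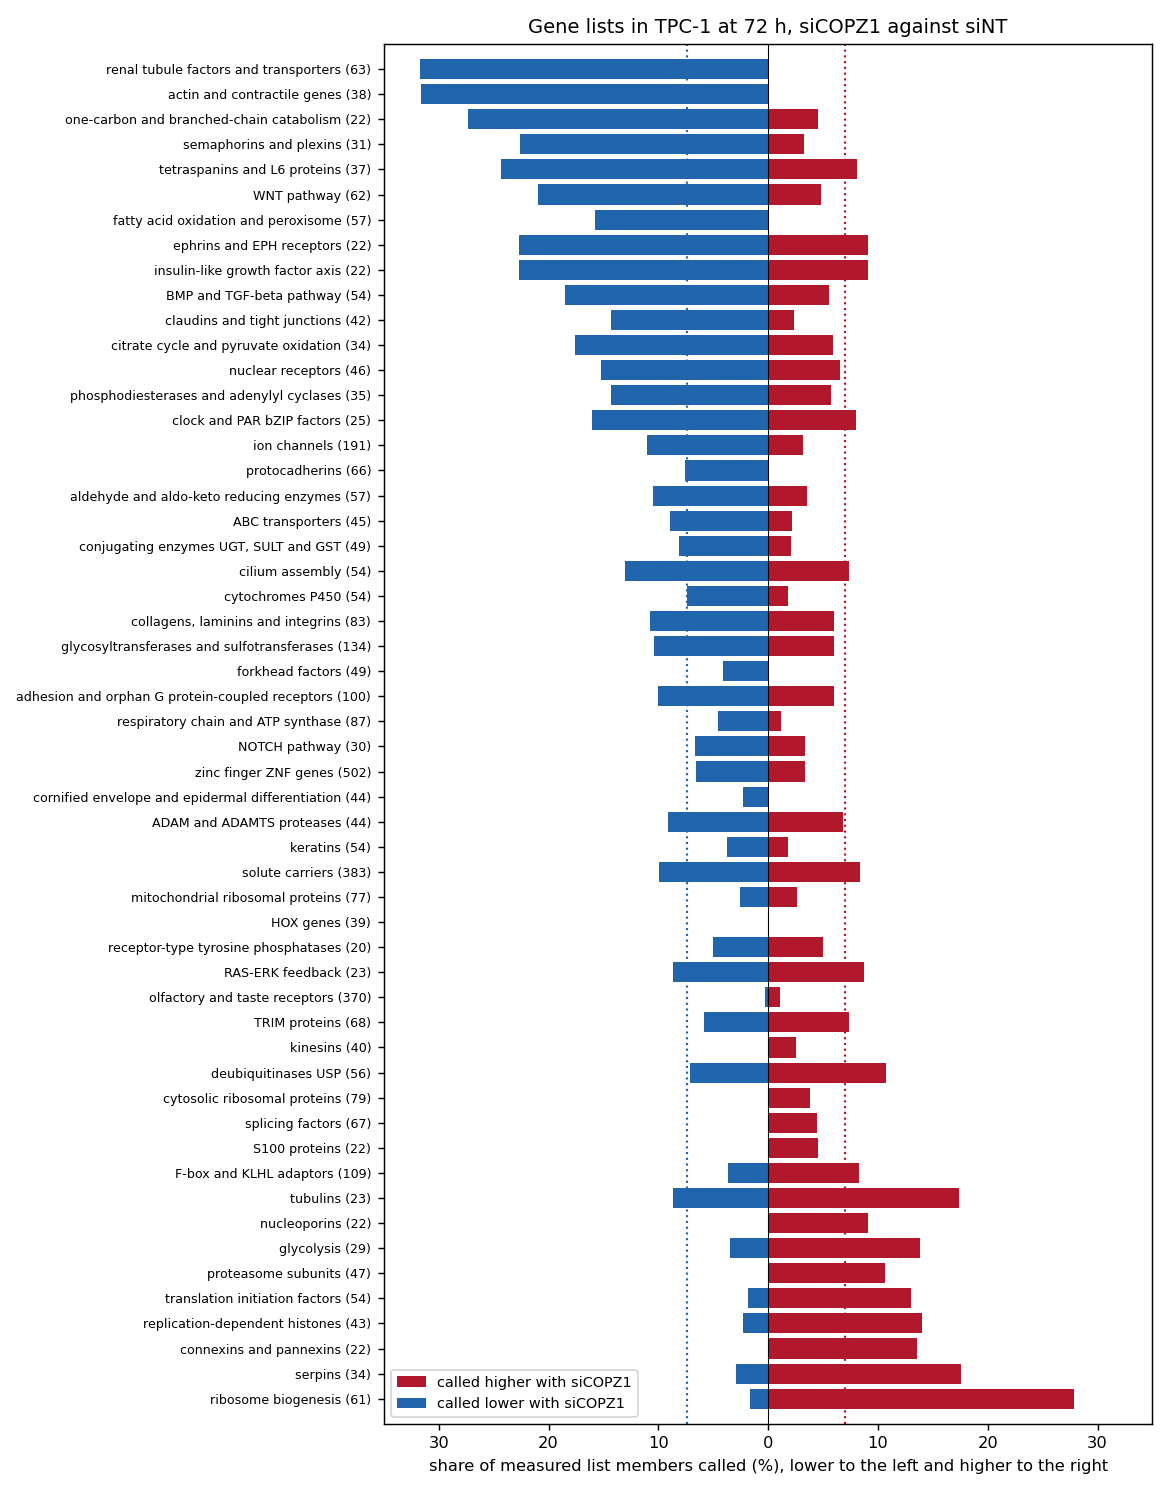
Share of the measured members of gene lists (list size in brackets, each 20 or more) called lower (blue, to the left) or higher (red, to the right) in siCOPZ1 against siNT wells of TPC-1 at 72 h, in percent. Dotted lines mark the shares of all genes, 7.42% lower and 7.03% higher. Called lower were 31.6% of the actin and contractile list, which also holds CTGF, and called higher were 27.9% of ribosome biogenesis genes.

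The 15 largest falls included 2 transporters, secreted proteins, enzymes and transcription factors. SLC14A1, a urea transporter of kidney and red cells, stood at 4.82, 5.60 and 5.90 with siCOPZ1, against 10.64, 9.16 and 10.19 with siNT, a difference (-4.56 ± 0.68, limma adjusted p = 0.000103). SLCO4C1, an organic anion transporter, stood at 7.67, 7.87 and 7.49, against 10.62, 11.11 and 11.58 (-3.43 ± 0.35, adjusted p = 1.62e-06). In both genes every siCOPZ1 well lay below every siNT well, and since the SLC14A1 mean of the depleted wells was dim, its difference is limited by background. FLG, which encodes the filament-aggregating protein of the epidermis, averaged 9.08 ± 0.32 with siCOPZ1 and 12.18 ± 0.16 with siNT (SD, n = 3 each), groups that do not overlap (-3.10 ± 0.17, adjusted p = 5.89e-10). CHST9, a sulfotransferase of N-acetylgalactosamine, fell (-3.21), as did the sodium channel SCN9A (-3.08) and the prostacyclin synthase PTGIS (-2.80). METTL7A, a methyltransferase of lipid droplets and the endoplasmic reticulum, fell (-2.76), and so did the cadherin CDH6 (-2.75), the nuclear protein CSRNP3 (-2.74) and PLAC8 (-2.72), each with groups that do not overlap. ACSM2A, a medium-chain acyl-CoA synthetase, was also among the 15 largest falls (-2.80 ± 0.64), but shares nearly all of its sequence with ACSM2B, so its value may hold signal of both. The siCOPZ1 means of ACSM2A (4.552) and CSRNP3 (3.844) were dim, so background limits both differences. At 48 h ACSM2A averaged 5.157 in siCOPZ1 wells and 5.185 ± 1.88 (SD) in siNT wells, and the siNT mean at 72 h was 7.353.

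Several of these genes are known from the renal tubule, which shares PAX8 with the thyroid. A list of renal tubule factors, transporters and enzymes was therefore drawn up after the largest falls had been seen, and 20 of its 63 measured members were called lower and 0 higher (31.7%, beside 7.42% of all genes), with a median of -0.23. Some of its members prompted the list, so its count is a description only, and 13 were called lower when dim genes were left out before the fit. PAX2, a paired-box factor of the developing kidney, stood at 7.48, 7.61 and 7.60 with siCOPZ1, against 9.54, 10.14 and 10.02 with siNT, or 19.8% of the siNT level (-2.34 ± 0.33, limma adjusted p = 4.89e-05). Its groups do not overlap, whereas PAX8, at 12.4 in both groups, was not called. PAX2 was chosen after its values were seen.

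Transport proteins made up much of this list. The phosphate and urate transporters SLC17A1 and SLC17A3 stood at 4.08, 3.96 and 4.10 and at 4.26, 4.42 and 4.21 with siCOPZ1, against 6.68, 6.22 and 6.95 and 6.78, 6.26 and 6.87 with siNT, so that both were dim after depletion and not before (-2.57 ± 0.33 and -2.34 ± 0.21). PDZK1, a scaffold that holds such transporters at the apical membrane, fell by 2.70 on the log2 scale, the potassium channels KCNJ16 and KCNJ13 by 2.33 and 2.23, and FXYD2, the gamma subunit of the sodium pump, by 2.24. PKHD1, which encodes fibrocystin of the primary cilium, fell by 2.11, the bicarbonate transporter SLC4A4 by 1.31, the kidney cadherin CDH16 by 1.09 and the transcription factor GATA3 by 1.57. The bile acid receptor NR1H4 fell by 2.37 and the pore-forming claudin CLDN2 by 1.93. The endocytic receptors CUBN (0.06) and LRP2 (-0.0047) were dim in both groups and were not called. The genes of this paragraph other than NR1H4 and CLDN2 were chosen after their values were seen. The plot of transport and renal-type genes gives the 6 wells of each gene it shows.

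**Figure D2:**
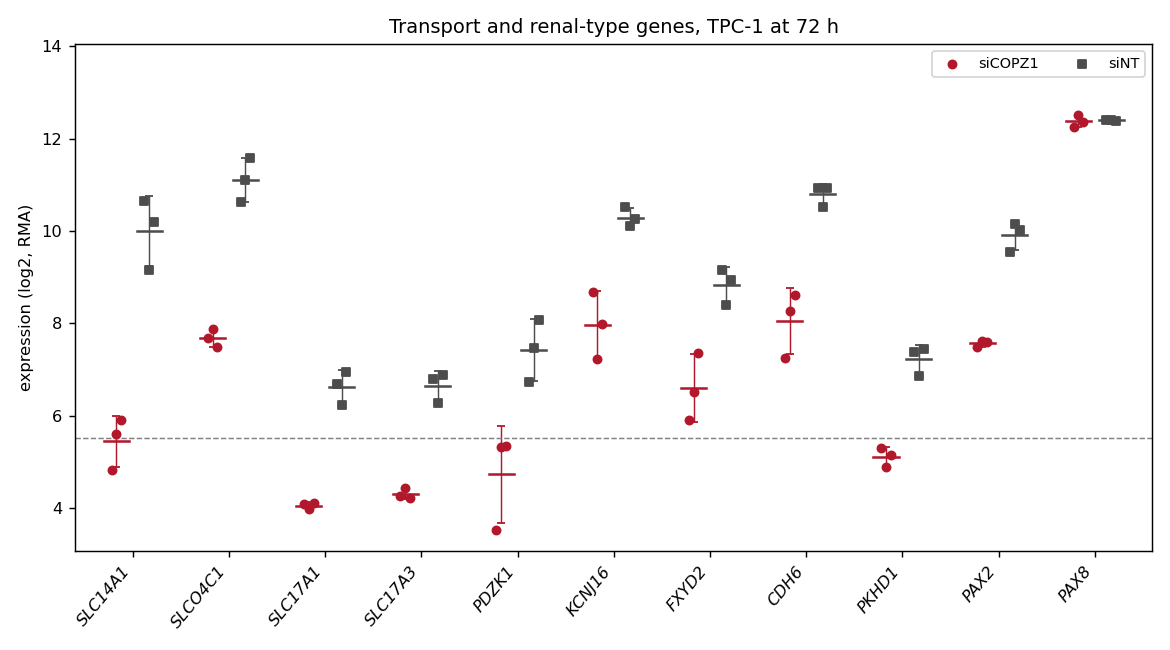
Expression (log2) of transport and renal-type genes in the 3 siCOPZ1 wells (red circles) and the 3 siNT wells (grey squares) of TPC-1 at 72 h, with mean and SD; the dashed line is the dim level of 5.51. All siCOPZ1 wells lie below all siNT wells for each gene except PAX8, which averaged 12.4 in both groups.

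Channels and transporters as families did not move alike. Of 191 ion channel genes, 21 were called lower (11%) and 6 higher (3.14%), with a median of -0.04. The count of lower genes was 13 without siCOPZ1 array 2, 13 with only these 6 arrays and 12 with only the 12 TPC-1 arrays. Voltage-gated sodium channels led the falls, with SCN9A at 6.47, 6.61 and 7.54 with siCOPZ1, against 9.85, 9.77 and 10.23 with siNT, and SCN3A at 6.75, 5.91 and 7.18, against 9.60, 8.45 and 9.37 (-2.53 ± 0.57). On the other side stood the heat-sensitive channel TRPV3, at 6.95, 7.24 and 7.50 with siCOPZ1 and 5.68, 4.72 and 5.01 with siNT (2.09 ± 0.24, limma adjusted p = 5.19e-06), and the ATP-gated channel P2RX4 (1.12 ± 0.24). The 383 solute carriers split into 32 higher (8.36%) and 38 lower (9.92%), both near the shares of all genes, with SLC10A7 (2.05 ± 0.52) the largest rise and SLC14A1 the largest fall, and SLC10A7 was no longer called without siNT array 2 (1.47, adjusted p = 0.0710). The iron exporter SLC40A1, chosen after its values were seen, fell by 1.21 on the log2 scale. Of 45 ABC transporters 4 were lower and 1 higher, with ABCA2 (-1.54 ± 0.20) and the keratinocyte lipid transporter ABCA12 (-1.05 ± 0.26) in the lead. PANX1, a channel that releases ATP and that was chosen after its values were seen, was at 9.74, 9.85 and 9.90 with siCOPZ1 and at 8.77, 8.58 and 8.76 with siNT.

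All 3 PAR bZIP factors of the circadian output fell. The PAR bZIP factors HLF, DBP and TEF are transcription factors whose levels cycle under the clock and which bind the D-box of target promoters. HLF stood at 5.29, 4.90 and 5.21 with siCOPZ1, against 8.72, 8.49 and 8.45 with siNT, so that it was dim in all depleted wells and its difference is limited by background (-3.42 ± 0.22, limma adjusted p = 5.23e-09). DBP stood at 6.67, 6.47 and 6.47, against 8.31, 8.60 and 8.45 (-1.92 ± 0.25, adjusted p = 2.55e-05), and TEF at 5.45, 4.89 and 5.52, against 6.04, 6.34 and 6.72 (-1.08 ± 0.19). All 3 had every siCOPZ1 well below every siNT well, as 28.9% of all genes have groups apart in either direction. PER3, a repressor arm gene of the clock, fell by 1.14 on the log2 scale, and ARNTL2, a partner of CLOCK, rose by 1.18, while NFIL3, which binds the same D-box as a repressor, rose by 0.75. The NFIL3 call was lost without siCOPZ1 array 1, siNT array 2 or siNT array 3 (adjusted p = 0.0661, 0.0830 and 0.0525). Of 25 clock and PAR bZIP genes, these 4 lower (16%) and 2 higher (8.00%) were the called ones, and the median of the list was 0.08. TEF, PER3, ARNTL2 and NFIL3 were chosen after their values were seen. The D-box letters TTATGTAA were searched on both strands from 250 bases before to 50 bases after each gene's start. They stood in 86 of 14754 promoters (0.583%), in 0.543% of the 1105 of genes called lower and in 0.285% of the 1054 of genes called higher. PER3 was the only clock gene of 22 with a match, 177 bases before the start (chr1:7784041-7784340, plus strand, RefSeq GRCh38.p14), in capitals here. Whether the D-box has a part in these changes was not tested.
PER3 promoter: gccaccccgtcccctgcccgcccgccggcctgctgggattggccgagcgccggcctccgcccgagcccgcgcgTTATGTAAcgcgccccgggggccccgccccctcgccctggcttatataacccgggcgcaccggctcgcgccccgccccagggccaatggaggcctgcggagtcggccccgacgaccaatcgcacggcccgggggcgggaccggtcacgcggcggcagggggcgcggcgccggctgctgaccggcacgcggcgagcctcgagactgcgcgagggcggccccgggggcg

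Nuclear receptors fell in 7 of 46 cases (15.2%; 4 with only the 12 TPC-1 arrays) and rose in 3 (6.52%). The estrogen-related receptor ESRRG, a driver of mitochondrial genes, stood at 5.97, 5.57 and 6.09 with siCOPZ1, against 8.07, 8.18 and 8.28 with siNT (-2.30 ± 0.33, limma adjusted p = 6.82e-05). The thyroid hormone receptor THRB stood at 6.75, 6.61 and 6.53, against 8.09, 9.13 and 8.94 (-2.09 ± 0.20, adjusted p = 8.07e-07), and THRA fell by 1.11 on the log2 scale. Groups did not overlap for either gene, and the siNT well numbered 1 was the lowest of its group for THRB. Opposite to these, NR4A3, an immediate early receptor without a known hormone, was at 8.72, 7.46 and 7.64 with siCOPZ1, against 5.18, 4.53 and 4.99 with siNT (3.04 ± 0.29). NR4A2 varied more, with 9.25, 7.05 and 5.85 against 5.55, 5.57 and 5.60 (1.81 ± 0.51), and lost its call without siCOPZ1 array 1 (0.88, adjusted p = 0.0939), siNT array 1 (0.0508) or siNT array 3 (0.0523). THRB, THRA, NR4A3 and NR4A2 were chosen after their values were seen.

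In the insulin-like growth factor axis, 3 binding proteins fell and 2 proteases that cleave such proteins rose. IGFBP3 stood at 8.75, 8.46 and 8.56 with siCOPZ1, against 11.90, 11.41 and 11.60 with siNT, or 12.1% of the siNT level (-3.05 ± 0.31, limma adjusted p = 1.32e-06). IGFBP5 stood at 6.02, 6.62 and 6.37, against 7.79, 9.57 and 9.83 (-2.73 ± 0.45), and IGFBP4 fell by 1.09 on the log2 scale. PAPPA and PAPPA2, metalloproteases known to cut some of the IGF binding proteins, moved the other way. PAPPA2 stood at 7.55, 7.03 and 7.34 with siCOPZ1, against 5.39, 5.28 and 5.08 with siNT (2.06 ± 0.18, adjusted p = 1.52e-07). PAPPA stood at 8.69, 6.46 and 6.47, against 5.57, 4.96 and 5.08 (2.01 ± 0.41), with siCOPZ1 well 1 far above the other depleted wells. Of 22 genes of the axis 5 were lower (22.7%) and 2 higher (9.09%), with a median of -0.14. IGFBP4, PAPPA and PAPPA2 were chosen after their values were seen.

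Some ligands and targets of the TGF-beta and BMP pathways fell, with 10 of 54 genes lower (18.5%) and 3 higher (5.56%) and a median of -0.08, and 6 were called lower with only these 6 arrays or only the 12 TPC-1 arrays. TGFB2, a secreted ligand, stood at 7.88, 6.67 and 7.17 with siCOPZ1, against 9.90, 10.31 and 10.50 with siNT, or 12.6% of the siNT level (-3.00 ± 0.28, limma adjusted p = 5.08e-07). The ligand BMP4 was at 10.10, 9.59 and 9.39, against 11.08, 10.91 and 11.10 (-1.34 ± 0.35), and its call was lost without siCOPZ1 array 3 (-1.19, adjusted p = 0.0567). ID1, a target gene of BMP signalling that blocks differentiation factors, was at 6.30, 6.85 and 6.79, against 8.14, 9.40 and 9.19 (-2.26 ± 0.39, adjusted p = 0.000427). None of these groups overlap, and siNT well 1 was the lowest of its group for TGFB2 and ID1. The inhibitory SMAD6 fell by 1.30 on the log2 scale, but this call was lost in all but 1 of the 6 fits that left out 1 array, with adjusted p from 0.0633 (without siNT array 1) to 0.182 (without siCOPZ1 array 2). INHBA, a subunit of activin, rose by 1.56. BMP4, SMAD6 and INHBA were chosen after their values were seen.

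WNT pathway genes fell in 13 of 62 cases (21.0%) and rose in 3 (4.84%), with a median of -0.19, and 8 were called lower with only these 6 arrays. LGR5, the R-spondin receptor of epithelial stem cells, stood at 9.69, 7.74 and 8.31 with siCOPZ1, against 11.06, 10.28 and 10.76 with siNT (-2.12 ± 0.41, limma adjusted p = 0.00120). ROR1, a receptor of the non-canonical branch, averaged 9.56 ± 0.13 with siCOPZ1 and 11.13 ± 0.12 with siNT (SD, n = 3 each; -1.57 ± 0.19, adjusted p = 1.27e-05). Both had groups that do not overlap, with siCOPZ1 well 1 nearest to the controls for LGR5. The frizzled receptor FZD7 fell by 1.19 on the log2 scale and AXIN2, a feedback target of the canonical branch, by 0.80, a call that was lost without siCOPZ1 array 2 (adjusted p = 0.0633). The ligand WNT5A was higher at 10.48, 9.82 and 9.69 with siCOPZ1, against 9.48, 7.64 and 8.16 with siNT (1.57 ± 0.34), and so was FZD8 at 8.86, 9.04 and 9.27, against 7.51, 6.81 and 7.28 (1.86 ± 0.23). FZD7, AXIN2, WNT5A and FZD8 were chosen after their values were seen, as was SPRY1, an inhibitor of receptor tyrosine kinase signalling, which fell by 1.86. The plot of clock, receptor, growth factor and matrix genes sets these wells side by side.

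**Figure D3:**
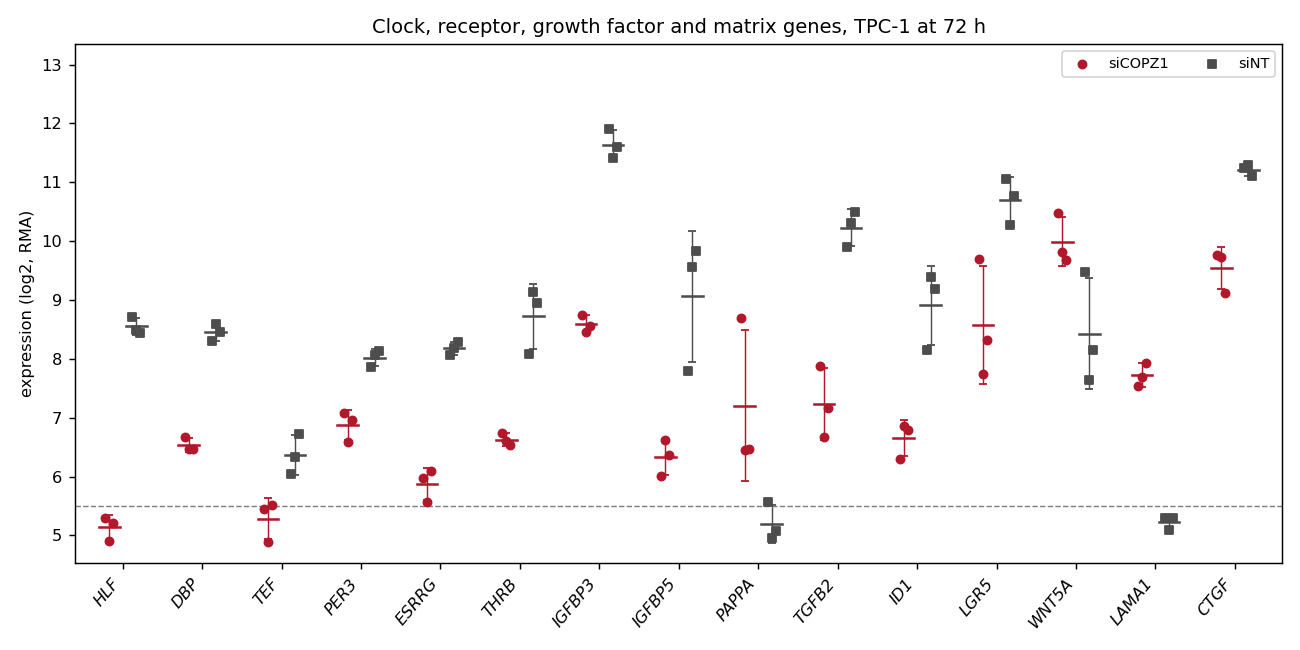
Expression (log2) of 15 clock, receptor, growth factor and matrix genes in the 3 siCOPZ1 wells (red circles) and 3 siNT wells (grey squares) of TPC-1 at 72 h, with mean and SD; the dashed line is the dim level of 5.51. PAPPA, WNT5A and LAMA1 are higher with siCOPZ1 and the other 12 lower, and HLF lies below the dim level in all 3 siCOPZ1 wells.

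Guidance receptors followed the falls. Semaphorins and plexins, cell-surface and secreted cues with their receptors, were lower in 7 of 31 cases (22.6%) and higher in 1 (3.23%), with a median of -0.24, led by SEMA6B (-1.27 ± 0.24) and PLXNB1 (-1.21 ± 0.24). Ephrins and their receptors were lower in 5 of 22 (22.7%) and higher in 2 (9.09%), with EPHA4 at 7.01, 7.15 and 7.85 with siCOPZ1, against 8.29, 8.78 and 9.04 with siNT (-1.37 ± 0.27, limma adjusted p = 0.00152), and EFNA5 at 9.27, 9.45 and 9.14, against 10.31, 10.51 and 10.38 (-1.11 ± 0.13). The count of 5 was 2 without siCOPZ1 array 2 or siNT array 3 and 3 without siNT array 1. EFNA1, a membrane-anchored ligand chosen after its values were seen, stood against the family at 9.28, 9.22 and 9.51 with siCOPZ1 and 8.15, 6.72 and 7.04 with siNT (2.03 ± 0.42). Tetraspanins and L6 proteins, which organise receptors in the plasma membrane, were lower in 9 of 37 cases (24.3%) and higher in 3 (8.11%), with 5 lower with only these 6 arrays or only the 12 TPC-1 arrays. Among them was TM4SF18 at 7.44, 7.46 and 7.45, against 9.65, 9.56 and 9.84 (-2.23 ± 0.29). TSPAN1 had a difference of -1.88 ± 0.51, a call lost without siCOPZ1 array 1 (adjusted p = 0.0534), siCOPZ1 array 2 (0.0612) or siNT array 3 (0.0763).

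Genes of the actin cytoskeleton and of contraction, listed together with genes outside the cytoskeleton such as CTGF, fell without a single called rise. Of 38 measured, 12 were called lower (31.6%), CTGF among them, and 0 higher. A difference below 0 was seen in 33, and the median was -0.36. Many of these genes are known targets of SRF and of the YAP partners of the TEAD family, which respond to tension and cell density. CTGF, a secreted matrix protein and textbook YAP target, stood at 9.77, 9.73 and 9.12 with siCOPZ1, against 11.24, 11.29 and 11.10 with siNT (-1.67 ± 0.41, limma adjusted p = 0.00896). The myosin light chain MYL9 stood at 8.98, 9.87 and 9.72, against 10.31, 11.19 and 10.83 (-1.25 ± 0.25), and calponin CNN2 at 10.71, 10.82 and 10.74, against 11.68, 12.12 and 11.94 (-1.16 ± 0.13, adjusted p = 5.67e-06). Groups of all 3 are apart, and well 1 was the lowest for MYL9 in both groups. CYR61, the relative of CTGF, differed by -0.84, tropomyosin TPM1 by -1.06 and beta-actin ACTB by -0.78, and each of these 3 calls was lost in 4 of the 6 fits without 1 array, with the highest adjusted p at 0.101 (CYR61, without siNT array 1), 0.137 (TPM1, without siNT array 2) and 0.0990 (ACTB, without siNT array 3). CNN2, CYR61, TPM1 and ACTB were chosen after their values were seen.

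The promoter search covered 1105 of the 1382 genes called lower and 1054 of the 1310 called higher. Of the 38 actin list genes it covered 32, with 8 of the 12 called lower. The TEAD letters CATTCC, searched on both strands, stood in 1709 of 14754 promoters (11.6%), in 14.0% of those of the genes called lower and in 10.2% of those called higher. They stood in 11 of the 32 actin list promoters, of which 4 belong to the 8 called lower. The CTGF promoter (chr6:131951323-131951622, minus strand, RefSeq GRCh38.p14, current symbol CCN2) held 3 matches, from 169 to 95 bases before the start, which are in capitals as GGAATG, the same letters on the other strand. A CArG box, the SRF motif, stood in 184 promoters (1.25%), in 1.27% of those of the genes called lower and in 1.04% of those called higher, and in 8 of the 32 actin list promoters, of which 2 belong to the 8 called lower. The actin list holds known targets of these factors, among them the YAP target CTGF, so its share of either motif is partly set by the choice of its members. These shares describe letters in the window and not the activity of either factor.
CTGF promoter: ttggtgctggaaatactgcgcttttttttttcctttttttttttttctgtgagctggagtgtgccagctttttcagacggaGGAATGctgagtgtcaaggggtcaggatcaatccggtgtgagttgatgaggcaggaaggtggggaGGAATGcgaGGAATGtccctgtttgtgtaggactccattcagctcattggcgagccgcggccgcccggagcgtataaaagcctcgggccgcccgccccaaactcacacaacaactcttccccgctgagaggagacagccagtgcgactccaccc

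Adhesion and matrix genes exchanged members. Of 83 collagens, laminins and integrins, 9 were lower (10.8%) and 5 higher (6.02%), near the shares of all genes. Lower were the integrins ITGB8, at 9.20, 8.30 and 8.89 with siCOPZ1, against 11.40, 10.79 and 11.35 with siNT (-2.38 ± 0.35, limma adjusted p = 7.96e-05), and ITGB3 (-1.31 ± 0.20), and the fibrillar collagen COL5A1 (-1.02 ± 0.26, adjusted p = 0.0550 without siCOPZ1 array 2). Higher was the laminin chain LAMA1, at 7.54, 7.70 and 7.94, against 5.30, 5.10 and 5.30 (2.49 ± 0.17, adjusted p = 5.87e-09). All groups named so far in this paragraph with their wells are apart. LAMB3, another laminin chain of basement membranes, rose by 1.30 on the log2 scale, and so did the collagen and laminin receptor ITGA2, by 1.30. The matrix proteases ADAMTS15 and ADAMTS3 fell, with ADAMTS15 at 5.33, 5.54 and 5.94, against 7.63, 8.28 and 8.30 (-2.47 ± 0.25), and ADAMTS3 by 1.75. COL5A1, LAMB3 and ITGA2 were chosen after their values were seen.

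Tight junction genes were lower in 6 of 42 cases (14.3%) and higher in 1 (2.38%), with a median of -0.15. CLDN2 stood at 5.35, 5.72 and 5.70 with siCOPZ1, against 7.41, 7.14 and 8.03 with siNT (-1.93 ± 0.27, limma adjusted p = 5.37e-05), and the junction adaptor CGNL1 at 4.23, 3.31 and 4.10, against 5.01, 6.64 and 6.60 (-2.21 ± 0.46). The siNT wells 2 and 3 of CGNL1 lay above its siNT well 1, which was dim. Of 66 protocadherins 5 were lower (7.58%) and 0 higher, and the count of 5 was 3 without siCOPZ1 array 1 or siNT array 2 and 0 when dim genes were left out before the fit. PCDH18 led them (-2.41 ± 0.36), and PCDHB14 (-1.08 ± 0.24) shares sequence with its cluster neighbours and is uncertain.

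Some genes for the breakdown of fatty acids and branched-chain amino acids fell. Of 57 genes of fatty acid oxidation and the peroxisome, 9 were lower (15.8%) and 0 higher, with a median of -0.18, and the count was 5 without siNT array 3 and 4 with only the 12 TPC-1 arrays. The peroxisomal bifunctional enzyme EHHADH stood at 7.10, 6.92 and 6.65 with siCOPZ1, against 8.27, 8.21 and 8.31 with siNT (-1.37 ± 0.21, limma adjusted p = 0.000111), and catalase CAT at 7.99, 7.42 and 7.66, against 8.82, 8.56 and 8.77 (-1.03 ± 0.20). PHYH, which starts the breakdown of phytanic acid, fell by 0.71 on the log2 scale, with groups that do not overlap in any of these 3 genes. Of 22 genes of folate-linked metabolism and branched-chain catabolism, 6 were lower (27.3%) and 1 higher (4.55%), with a median of -0.29, and the count of 6 was 3 without siCOPZ1 array 1, siCOPZ1 array 2 or siNT array 3. ALDH6A1, of valine breakdown, fell by 1.11 and BCKDHB, a subunit of the branched-chain keto acid dehydrogenase that was dim in both groups, by 1.09, while MCEE, an epimerase of propionate metabolism, rose by 1.59. PHYH, BCKDHB and MCEE were chosen after their values were seen.

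Carbon entry into mitochondria and glycolysis changed in single genes. PDK2, a kinase that switches pyruvate dehydrogenase off, stood at 8.23, 7.67 and 7.62 with siCOPZ1, against 9.36, 9.77 and 9.60 with siNT (-1.73 ± 0.23, limma adjusted p = 2.33e-05), and the cytosolic isocitrate dehydrogenase IDH1 at 9.32, 8.70 and 8.88, against 10.00, 9.71 and 10.16 (-0.99 ± 0.22). Neither pair of groups overlaps. They belong to a list of 34 genes of the citrate cycle and pyruvate oxidation with 6 lower (17.6%) and 2 higher (5.88%), of which 3 were called lower without siCOPZ1 array 2. Of 29 glycolysis genes 4 were higher (13.8%) and 1 lower (3.45%), and the count of 4 was 1 with only these 6 arrays. The log2 of their summed linear levels ran from 15.07 to 15.17 with siCOPZ1 and over the same range with siNT. ENO2 stood at 9.27, 9.18 and 8.98, against 8.15, 7.74 and 8.01 (1.18 ± 0.16, limma adjusted p = 2.78e-05). The fructose bisphosphate regulator PFKFB4 was up by 0.96 on the log2 scale and hexokinase HK1 by 0.51. The 1 glycolysis gene that fell was the pyruvate kinase PKM, at 10.19, 10.64 and 10.58, against 11.45, 11.25 and 11.46 (-0.92 ± 0.22). Of 87 respiratory chain and ATP synthase genes, 4 were lower (4.60%) and 1 higher (1.15%), both under the shares of all genes, led by the tissue-restricted subunits COX6B2 (-1.80 ± 0.39) and COX7A1 (-1.26 ± 0.29). HK1 and PKM were chosen after their values were seen.

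Enzymes of hormone and drug metabolism changed in single members, while the shares of both families called lower lay near the 7.42% of all genes. CYP24A1, which inactivates vitamin D, stood at 6.86, 5.78 and 6.51 with siCOPZ1, against 9.04, 8.69 and 9.36 with siNT (-2.65 ± 0.47, limma adjusted p = 0.000592), and CYP27B1, which activates vitamin D and was chosen after its values were seen, stood at 6.37, 7.56 and 6.82, against 5.98, 5.75 and 5.77 (1.08 ± 0.25). Their groups did not overlap in either case. CYP1B1, which oxidises steroids and aryl hydrocarbons, fell by 1.54 on the log2 scale. Of 54 cytochromes P450 4 were lower (7.41%) and 1 higher (1.85%), and the count of 4 was 2 without siCOPZ1 array 2 or siNT array 1. Among 49 conjugating enzymes 4 were lower (8.16%) and 1 higher (2.04%), with GSTM4 at 6.99, 6.74 and 6.84, against 8.18, 8.72 and 8.59 (-1.64 ± 0.22), UGT2B7 at a difference of -1.64 ± 0.37 and GSTO1, also chosen after its values were seen, higher by 1.33 ± 0.15. GSTM and UGT2B genes have close relatives in their clusters, so these values may be shared with them. Metallothioneins, which mark metal and oxidative stress, held 0 called genes of 11.

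Rises were also found in ribosome biogenesis. Of 61 such genes 17 were higher (27.9%) and 1 lower (1.64%), 54 had a difference above 0, and the median was 0.38, beside -0.0050 for all genes. The count of 17 was 7 without siCOPZ1 array 2, 6 without siCOPZ1 array 3, 9 without siNT array 1, 11 without siNT array 2 and 8 without siNT array 3, and it was 9 with only these 6 arrays and 6 with only the 12 TPC-1 arrays. RIOK2, a kinase that matures the small subunit, stood at 8.04, 8.29 and 8.55 with siCOPZ1, against 6.97, 7.52 and 6.85 with siNT (1.18 ± 0.24, limma adjusted p = 0.00186), and PNO1, its partner in the pre-ribosome, at 8.85, 8.74 and 8.76, against 7.48, 7.85 and 8.11 (0.97 ± 0.22). WDR43, of the small subunit processome, rose by 0.96 on the log2 scale and the nucleolar helicase DDX21 by 0.89. All 4, chosen among called genes, have every siCOPZ1 well above every siNT well, and 28.9% of all genes have groups apart in either direction. PES1, a factor of the large subunit, was the exception at -1.55 ± 0.44, with all 3 siCOPZ1 wells and siNT well 1 dim, and its call was lost without siCOPZ1 array 1 or 3 or siNT array 2 or 3 (adjusted p = 0.0829, 0.101, 0.0905 and 0.0647). WDR43, DDX21 and PES1 were chosen after their values were seen.

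Lists of translation, protein turnover and histones held smaller numbers of rises. Proteasome subunits lay near the 7.03% of all genes and cytosolic ribosomal proteins under it. Of 54 translation initiation factors 7 were higher (13%) and 1 lower (1.85%), with EIF2S3, a subunit of the factor that brings the initiator tRNA, at 8.31, 8.84 and 8.81 with siCOPZ1, against 6.70, 7.31 and 6.64 with siNT (1.76 ± 0.24, limma adjusted p = 3.22e-05). EIF2AK3, the endoplasmic reticulum kinase that inhibits this factor, is counted in the list by its symbol. It was at 9.09, 8.98 and 8.77, against 8.02, 7.46 and 7.60 (1.25 ± 0.22). The 1 member that fell, EIF4ENIF1, carries the cap-binding protein into the nucleus (-0.62 ± 0.14) and was chosen after its value was seen. Of 47 proteasome subunits 5 were higher (10.6%) and 0 lower, led by PSMD2 (0.79 ± 0.18) and PSMB7 (0.66 ± 0.15), and this count was 2 without siCOPZ1 array 3, siNT array 1 or siNT array 3 and 3 without siCOPZ1 array 2 or siNT array 2, but 9 without dim genes or with a replicate block and 8 with a robust trend. Of 43 replication-dependent histone genes 6 were higher (14.0%) and 1 lower (2.33%), but the count of 6 lay between 1 and 3 without siCOPZ1 array 1, 2 or 3 or siNT array 1 or 3, and it was 0 with only these 6 arrays and 0 with only the 12 TPC-1 arrays. Their copies share sequence and are uncertain singly, and the 1 that fell, HIST1H2AC (-1.42 ± 0.19), chosen after its value was seen, is among the histone genes that also give polyadenylated transcripts. Of 79 cytosolic ribosomal protein genes 3 were higher (3.80%) and 0 lower, under the share of all genes.

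**Figure D4:**
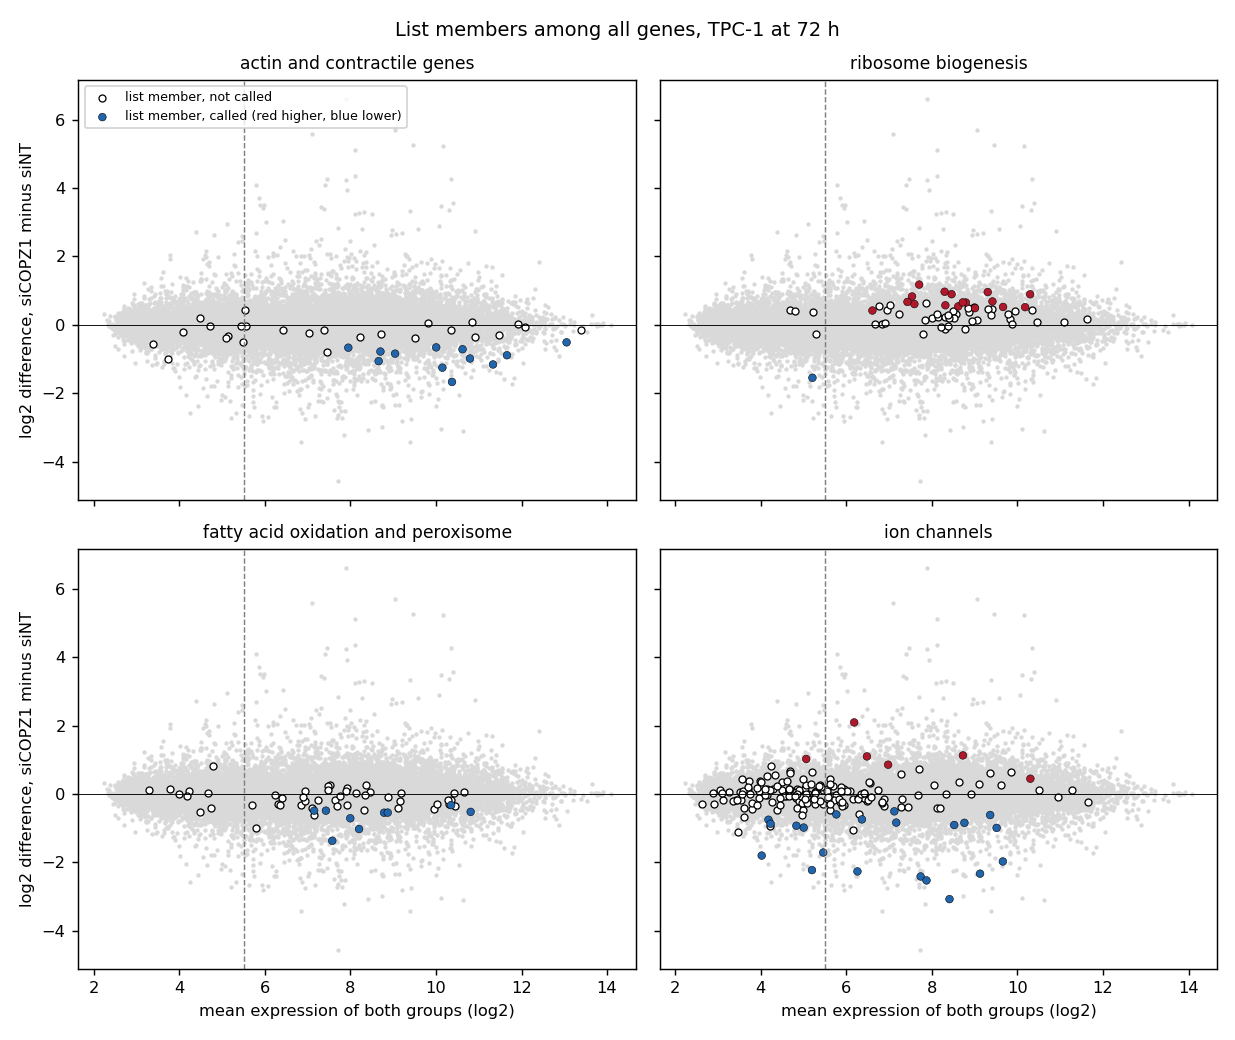
Log2 difference, siCOPZ1 minus siNT, against the mean log2 expression of both groups in TPC-1 at 72 h for all genes (grey) and for the members of 4 lists (open circles not called, red called higher, blue called lower); the dashed line is the dim level of 5.51. Called genes of the actin list (12 lower) and ribosome biogenesis genes (17 higher) lie mostly well above the dim level, whereas the 21 ion channels called lower reach -3.08.

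Single genes of coagulation, cytokine reception and fatty acid sensing were among the 10 largest rises or led their lists. F3, tissue factor, which starts coagulation, stood at 10.48, 9.78 and 9.79 with siCOPZ1, against 6.40, 5.14 and 5.78 with siNT, or 18.9-fold (4.24 ± 0.35, limma adjusted p = 9.58e-08). IL7R, a chain of the receptors for interleukin 7 and TSLP, stood at 10.43, 10.05 and 10.37, against 6.07, 6.11 and 5.63, or 20.4-fold (4.35 ± 0.29, adjusted p = 5.87e-09). In both genes every depleted well lay far above every control. GPR84, a receptor for medium-chain fatty acids known from myeloid cells, stood at 7.90, 7.24 and 7.46, against 5.08, 3.93 and 4.54 (3.02 ± 0.28), while 0 of the 10 leukocyte markers were called higher. Serpins, protease inhibitors, were higher in 6 of 34 cases (17.6%) and lower in 1 (2.94%), with SERPINB7, chosen after its values were seen, higher by 2.01 ± 0.45. Sugar transfer enzymes were lower in 14 of 134 cases (10.4%) and higher in 8 (5.97%), the count of 8 being 5 without siCOPZ1 array 2. CSGALNACT2, which starts chondroitin chains, rose by 2.03 on the log2 scale and GALNT12, which starts O-linked glycans, by 1.96, while the sulfotransferase CHST1 fell by 2.26.

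Many families stood near or below the shares of all genes. Of 39 HOX genes and 16 mucins 0 were called, of 370 olfactory and taste receptors 4 were higher (1.08%; 1 without siNT array 1 or 3) and 1 lower (0.270%), and of 40 kinesins 1 was higher (2.50%) and 0 lower. Zinc finger ZNF genes were lower in 33 of 502 cases (6.57%) and higher in 17 (3.39%), with ZNF608 at 8.50, 8.28 and 8.12 with siCOPZ1, against 10.29, 10.37 and 10.50 with siNT (-2.09 ± 0.17, limma adjusted p = 4.88e-08) and ZNF804A higher by 2.07 ± 0.34. The ZNF counts were 21 lower without siNT array 3, and 9 and 10 higher without siCOPZ1 array 3 and siNT array 1. Ubiquitin ligase adaptors of the F-box and KLHL families were higher in 9 of 109 cases (8.26%) and lower in 4 (3.67%), where KLHL14, a gene of thyroid and B cells, fell by 2.06 on the log2 scale. Of 68 TRIM proteins 5 were higher (7.35%) and 4 lower (5.88%), with TRIM39 at 7.49, 7.57 and 7.43, against 5.66, 5.11 and 4.92 (2.27 ± 0.44), and TRIM38, a brake on innate immune signalling, at 9.45, 9.69 and 9.46, against 10.78, 11.19 and 11.40 (-1.59 ± 0.17). The wells of both TRIM genes are apart by group, in opposite directions. Cilium assembly genes split into 4 higher (7.41%) and 7 lower (13%) of 54, the count of 4 being 1 without siCOPZ1 array 3 or siNT array 2 and 2 without siNT array 3.

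The course between the 2 times was set side by side for both siRNAs. Of the 61 ribosome biogenesis genes, 49 were lower at 72 h than at 48 h in siCOPZ1 wells, with a median change of -0.20, and 55 in siNT wells, with a median change of -0.43, beside medians over all genes of -0.036 in siCOPZ1 wells and 0.0046 in siNT wells. The rises of that list at 72 h stand beside lower values in the controls at that time, and EIF2S3 of the initiation factors had means of 8.31 at 48 h and 8.65 at 72 h in siCOPZ1 wells, and of 8.61 at 48 h and 6.89 at 72 h in siNT wells. The actin list did the reverse, with 31 of 38 genes lower at 72 h than at 48 h in siCOPZ1 wells and a median change of -0.31. In siNT wells 15 of 38 were lower, with a median change of 0.047. For renal-type genes both courses parted, with a median change of -0.18 in siCOPZ1 wells and of 0.27 in siNT wells. SLC14A1, which is not a member of that list, averaged 6.45 ± 1.71 at 48 h and 5.44 ± 0.56 at 72 h in siCOPZ1 wells (SD). In siNT wells it averaged 7.37 ± 1.67 at 48 h and 10.00 ± 0.76 at 72 h. The siNT wells at 72 h enter both the difference at 72 h and the change over time, so these values are descriptions.

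Whether the late effect differed from the effect at 48 h was tested as the difference of the 2 differences. It was called for 381 genes (2.04%), 206 lower and 175 higher, and genes chosen for their effect at 72 h are more likely to be among them, since that effect is a term of the difference. HLF, with a difference of -0.49 at 48 h and -3.42 at 72 h, had a time difference of -2.92 (limma adjusted p = 8.87e-05), and PAX2, with -0.09 at 48 h and -2.34 at 72 h, had -2.25 (adjusted p = 0.0125). For SLC14A1 the time difference of -3.63 was not called (adjusted p = 0.0547). EIF2S3 (2.06, adjusted p = 0.00202) and PAPPA2 (2.10, adjusted p = 0.000124) were called on the side of later rises. The count of 381 was 243 without siCOPZ1 array 2, 235 without siCOPZ1 array 3, 253 without siNT array 2 and 187 without siNT array 3. COPZ1 itself differed by -3.25 at 48 h and by -2.17 at 72 h, a time difference of 1.08 that was not called (adjusted p = 0.0888).

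The effect was also set against that in Nthy-ori 3-1 at 72 h, where the medium differs too. The difference between the lines was called for 749 genes (4.02%), 405 lower and 344 higher in TPC-1, among them 394 of the 1382 falls and 338 of the 1310 rises, genes chosen by an effect that is a term of this difference. The count of 749 was 485 without siNT array 3. Some of the strongest falls concern genes that the other line hardly expresses. For 7 of the 15 largest the mean in Nthy-ori 3-1 siNT wells was dim, which leaves little room for a fall there. The share of all genes that were dim in those wells was not counted, and in TPC-1 siNT wells it was 33.8%. FLG, for example, averaged 9.08 with siCOPZ1 and 12.18 with siNT in TPC-1, against 5.18 and 5.33 in Nthy-ori 3-1 (line difference -2.95, limma adjusted p = 1.00e-06), and SLCO4C1 averaged 5.38 and 5.40 there. Other genes were above the dim level in both lines. TGFB2 averaged 7.24 and 10.23 in TPC-1 and 9.69 and 9.85 in Nthy-ori 3-1 (line difference -2.84, adjusted p = 0.000236), THRB 6.63 and 8.72 in TPC-1 and 8.37 and 8.42 in Nthy-ori 3-1 (-2.04, adjusted p = 0.000249). PLAC8 averaged 6.45 and 9.17 in TPC-1 and 11.56 and 11.99 in Nthy-ori 3-1 (-2.29, adjusted p = 0.000500). IL7R was already high in Nthy-ori 3-1, at 10.53 with siCOPZ1 and 10.84 with siNT, a level that TPC-1 had with siCOPZ1 and not with siNT. COPZ1 differed by -2.17 in TPC-1 and by -1.57 in Nthy-ori 3-1, and this line difference of -0.60 was not called (adjusted p = 0.371). The plot of effects by line and time gives the 3 effects for 14 genes.

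**Figure D5:**
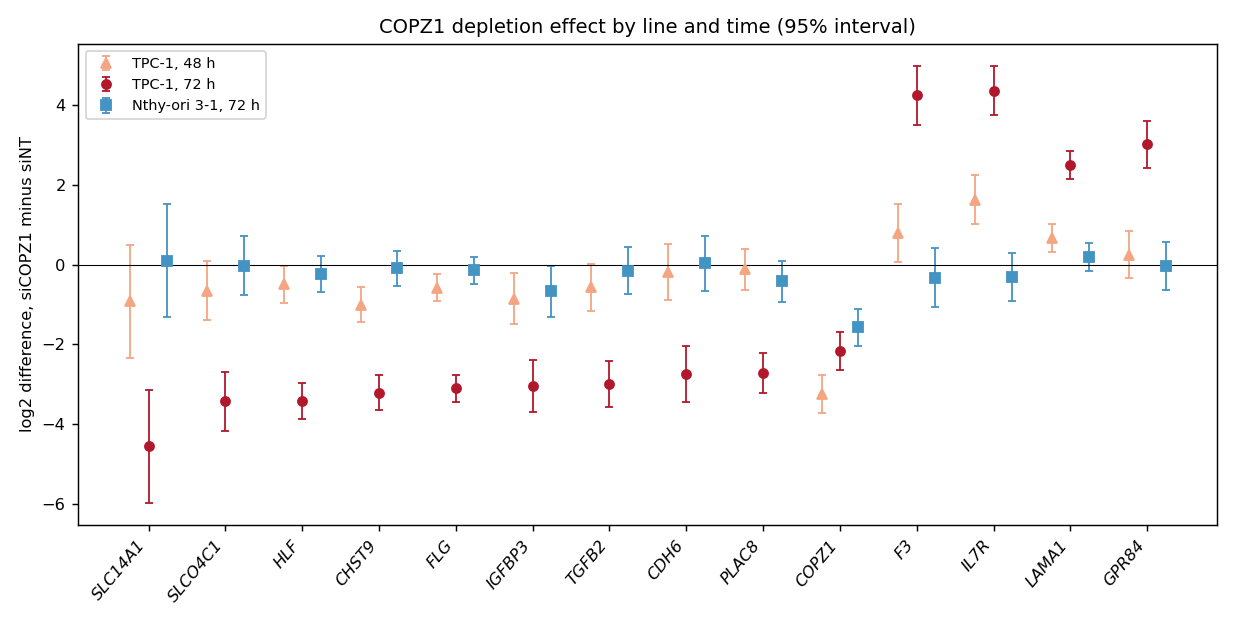
Effect of COPZ1 depletion (log2 difference, siCOPZ1 minus siNT, with 95% interval from the limma fit) on 14 genes in TPC-1 at 48 h (triangles), TPC-1 at 72 h (circles) and Nthy-ori 3-1 at 72 h (squares). HLF lies at -0.49, -3.42 and -0.24 in this order and IL7R at 1.62, 4.35 and -0.31, while COPZ1 is lower in all 3.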

How the data were processed

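Whole-transcriptome arrays of 24 samples in 8 groups of 3 wells were used, and all values start from the table of gene levels that the submitters provided. The deposited values are log2 signals normalised by the authors with RMA, per the submitters' processing notes; for array annotation, genome build and probe filters, no source used here gives a statement. The table holds 18637 lines with values from 1.70 to 14.2; 28 symbols had been turned into dates, 5 stood on several lines, and 18632 genes were tested. Arrays give no read depth, and their number limits the precision.

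All 24 arrays were fitted in 1 linear model with limma 3.58.1 in R 4.3.3, with the line difference and the time difference as contrasts and Benjamini-Hochberg adjustment over all genes; the self-test on simulated data ran the same code. Named genes are the 15 largest falls and 10 largest rises, up to 2 called genes per direction of each list with at least 4 called, COPZ1, COPZ2 and thyroid markers (138 in all), and 61 chosen after their values were seen; some of these genes and lists are not reported here. Members and lists were chosen with earlier results of these data known. The dim level, 5.51, is the 95th percentile of olfactory and taste receptor means. Same-numbered siCOPZ1 and siNT wells correlated in their deviations at 0.163, 0.160 and 0.041. Wells of unlike number correlated at -0.155 to 0.0034, all under the same-numbered pairs. Whether the numbers pair the wells is undecided. The main fit did not pair them, and the fit with a replicate block called more genes. Alternatives were other sets of arrays, a replicate block, median centring, leaving out dim genes, a robust trend and leaving out each array.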

Additional observations from a re-analysis of the deposited data

Results flagged for a closer look

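For 96 of the 174 called genes named here, beside 749 of all 18632 genes (4.02%), the effect of siCOPZ1 in TPC-1 at 72 h differed from that in Nthy-ori 3-1 at 72 h by limma's test of the difference itself, adjusted over all genes. The genes were chosen by their effect in TPC-1 at 72 h, which is a term of this difference and of the next, so these counts support nothing about them. The values are log2 effects in TPC-1 minus those in Nthy-ori 3-1, and part of the genes below 0 were dim in Nthy-ori 3-1 wells. Below 0 were SLC14A1 (-4.66), SLCO4C1 (-3.40), HLF (-3.18), CHST9 (-3.11), FLG (-2.95), SCN3A (-2.89), SCN9A (-2.84), TGFB2 (-2.84), IGFBP5 (-2.81), SLC17A1 (-2.81), METTL7A (-2.77), CDH6 (-2.77), KCNJ13 (-2.57), CSRNP3 (-2.55), CHST1 (-2.51), CGNL1 (-2.48), SLC17A3 (-2.46), FXYD2 (-2.44), NR1H4 (-2.41), IGFBP3 (-2.38), PES1 (-2.36), ESRRG (-2.30), PLAC8 (-2.29), PTGIS (-2.29), LGR5 (-2.23), PAX2 (-2.15), ADAMTS15 (-2.12), ZNF608 (-2.07), PKHD1 (-2.07), KLHL14 (-2.07), THRB (-2.04), ITGB8 (-1.95), ADGRF2 (-1.87), CLDN2 (-1.79), DBP (-1.77), CYP1B1 (-1.76), TRIM6 (-1.75), ADAMTS3 (-1.69), PDK2 (-1.69), TRIM38 (-1.69), TM4SF18 (-1.64), TEF (-1.42), GSTM4 (-1.40), BCKDHB (-1.40), ROR1 (-1.36), PDGFRB (-1.30), SEMA6B (-1.29), TTC30B (-1.29), HIST1H2AC (-1.28), ABCA2 (-1.26), SLC4A4 (-1.22), PLXNB1 (-1.21), CAT (-1.16), ITGB3 (-1.12), FZD7 (-1.10), CDH16 (-1.08), EHHADH (-1.08), SLC40A1 (-1.05), EFNA5 (-1.03), CNN2 (-1.02), PER3 (-1.01), IFT81 (-0.94), PHYH (-0.75). Above 0 were HK1 (0.65), PSMD2 (0.99), USP31 (1.01), PANX1 (1.07), GPR65 (1.28), PFKFB4 (1.29), ARNTL2 (1.30), EIF2AK3 (1.32), P2RX4 (1.34), ENO2 (1.46), ITGA2 (1.5), GSTO1 (1.54), EIF2S3 (1.62), WNT5A (1.75), PAPPA2 (1.81), CSGALNACT2 (1.96), FZD8 (2.08), GALNT12 (2.08), TRPV3 (2.26), LAMA1 (2.31), ZNF804A (2.60), ZNF318 (2.70), GPR84 (3.06), NR4A3 (3.06), TRAF1 (4.14), F3 (4.57), IL7R (4.66), IL24 (4.88), MMP1 (4.92), IL1A (5.18), BCL2A1 (5.34), TNFAIP6 (5.65), SERPINB2 (6.92).

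For 56 of the same 174 genes, beside 381 of all genes (2.04%), the effect in TPC-1 at 72 h differed from that at 48 h by the same test, given as the 72 h effect minus the 48 h effect. The 2 times share no wells. Below 0 were HLF (-2.92), SLCO4C1 (-2.77), PLAC8 (-2.60), CDH6 (-2.56), FLG (-2.52), TGFB2 (-2.42), SLC17A1 (-2.32), SCN9A (-2.31), PTGIS (-2.29), PAX2 (-2.25), CHST9 (-2.21), IGFBP3 (-2.19), PCDH18 (-2.16), ESRRG (-1.90), ADAMTS15 (-1.78), THRB (-1.59), ALDH3B1 (-1.57), CLDN2 (-1.56), ZNF608 (-1.55), DBP (-1.5), SLC17A3 (-1.47), GSTM4 (-1.46), PDK2 (-1.39), PDGFRB (-1.38), ROR1 (-1.36), SEMA6B (-1.35), ABCA2 (-1.25), ADAMTS3 (-1.09), SLC4A4 (-1.05), CNN2 (-1.0), TRIM38 (-0.92), EFNA5 (-0.86). Above 0 were PANX1 (0.88), ARNTL2 (1.02), GSTO1 (1.17), ENO2 (1.17), FZD8 (1.30), CSGALNACT2 (1.49), TRIM36 (1.5), TRPV3 (1.52), OR5B21 (1.52), LAMA1 (1.83), GALNT12 (2.0), EIF2S3 (2.06), PAPPA2 (2.10), PAPPA (2.24), NR4A3 (2.62), IL7R (2.73), GPR84 (2.77), BCL2A1 (3.02), MMP1 (3.44), F3 (3.45), IL1A (3.61), IL24 (4.26), TNFAIP6 (4.48), SERPINB2 (6.22).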

How the results depend on the processing

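The count of 2692 genes called at 72 h was 1507 with only these 6 arrays and 1638 with only the 12 TPC-1 arrays, settings with fewer samples. With each array centred on its median it was 2712, of which 1501 were higher and 1211 lower, against 1310 and 1382 in the main fit. It was 2728 without dim genes, 2803 with a robust trend and 1925 to 2368 with 1 array left out. The line difference of 749 genes was 442 without all arrays numbered 1, a setting chosen after seeing the data, and 485 to 791 with 1 array left out; the time difference of 381 was 77 with only the 12 TPC-1 arrays and 187 to 408 with 1 array left out. With the replicate number as a block, as a replicate block the labels do not require, the counts were 3474, 1300 and 851. COPZ1 was at -1.93 to -2.31 with 1 array left out and at -2.17 with the block (adjusted p = 3.38e-05). Of 177 called named genes, 29 were no longer called in 1 or more of the 6 fits without an array and 148 were called with 6 arrays. Differences near 0 that changed sign belong to genes that were not called, and ran, with 1 array left out, as follows: DIO1 -0.084 to 0.46, DUOX1 -0.30 to 0.17 (and 0.17 without all arrays numbered 1), DUOX2 -0.22 to 0.13, DUOXA1 -0.30 to 0.011, DUOXA2 -0.041 to 0.19 (and -0.052 without all arrays numbered 1), GLIS3 -0.37 to 0.25 (and -0.31 without all arrays numbered 1), IYD -0.60 to 0.20 (and 0.090 without all arrays numbered 1), PAX8 -0.095 to 0.028 (and 0.015 with median centring and 0.034 without all arrays numbered 1), SLC5A5 -0.038 to 0.42, SLC5A8 -0.14 to 0.22 (and 0.043 with median centring and 0.24 without all arrays numbered 1), TSHR -0.12 to 0.36, LRP2 -0.19 to 0.11 (and 0.039 with median centring and 0.061 without all arrays numbered 1). The cause was not tested. With only these 6 arrays the list counts that moved by over 1.5 times became replication-dependent histones higher 0 (in place of 6), zinc finger ZNF genes higher 6 (in place of 17), zinc finger ZNF genes lower 15 (in place of 33), ribosome biogenesis higher 9 (in place of 17), proteasome subunits higher 2 (in place of 5), TRIM proteins higher 3 (in place of 5), TRIM proteins lower 2 (in place of 4), deubiquitinases USP higher 3 (in place of 6), deubiquitinases USP lower 0 (in place of 4), F-box and KLHL adaptors higher 3 (in place of 9), F-box and KLHL adaptors lower 2 (in place of 4), respiratory chain and ATP synthase lower 2 (in place of 4), citrate cycle and pyruvate oxidation lower 3 (in place of 6), glycolysis higher 1 (in place of 4), one-carbon and branched-chain catabolism lower 2 (in place of 6), solute carriers higher 21 (in place of 32), ion channels lower 13 (in place of 21), protocadherins lower 3 (in place of 5), tetraspanins and L6 proteins lower 5 (in place of 9), glycosyltransferases and sulfotransferases higher 4 (in place of 8), glycosyltransferases and sulfotransferases lower 7 (in place of 14), WNT pathway lower 8 (in place of 13), BMP and TGF-beta pathway lower 6 (in place of 10), adhesion and orphan G protein-coupled receptors higher 3 (in place of 6), tubulins higher 1 (in place of 4), cilium assembly higher 1 (in place of 4), olfactory and taste receptors higher 2 (in place of 4). With only the 12 TPC-1 arrays they became replication-dependent histones higher 0 (in place of 6), zinc finger ZNF genes higher 9 (in place of 17), zinc finger ZNF genes lower 17 (in place of 33), nuclear receptors lower 4 (in place of 7), ribosome biogenesis higher 6 (in place of 17), proteasome subunits higher 2 (in place of 5), deubiquitinases USP lower 1 (in place of 4), F-box and KLHL adaptors higher 5 (in place of 9), F-box and KLHL adaptors lower 2 (in place of 4), citrate cycle and pyruvate oxidation lower 3 (in place of 6), fatty acid oxidation and peroxisome lower 4 (in place of 9), one-carbon and branched-chain catabolism lower 2 (in place of 6), cytochromes P450 lower 2 (in place of 4), solute carriers higher 21 (in place of 32), ion channels lower 12 (in place of 21), protocadherins lower 3 (in place of 5), tetraspanins and L6 proteins lower 5 (in place of 9), collagens, laminins and integrins lower 5 (in place of 9), ADAM and ADAMTS proteases lower 2 (in place of 4), glycosyltransferases and sulfotransferases higher 4 (in place of 8), ephrins and EPH receptors lower 3 (in place of 5), BMP and TGF-beta pathway lower 6 (in place of 10), adhesion and orphan G protein-coupled receptors higher 3 (in place of 6), tubulins higher 2 (in place of 4), cilium assembly higher 2 (in place of 4), olfactory and taste receptors higher 2 (in place of 4). With the replicate block they became proteasome subunits higher 9 (in place of 5), F-box and KLHL adaptors lower 7 (in place of 4), respiratory chain and ATP synthase lower 7 (in place of 4), fatty acid oxidation and peroxisome lower 14 (in place of 9), aldehyde and aldo-keto reducing enzymes lower 10 (in place of 6), ion channels higher 10 (in place of 6), protocadherins lower 10 (in place of 5), ADAM and ADAMTS proteases lower 7 (in place of 4), ephrins and EPH receptors lower 8 (in place of 5), olfactory and taste receptors higher 7 (in place of 4). Without dim genes they became proteasome subunits higher 9 (in place of 5), F-box and KLHL adaptors lower 2 (in place of 4), protocadherins lower 0 (in place of 5), adhesion and orphan G protein-coupled receptors higher 3 (in place of 6), adhesion and orphan G protein-coupled receptors lower 5 (in place of 10), phosphodiesterases and adenylyl cyclases lower 3 (in place of 5), olfactory and taste receptors higher 0 (in place of 4), renal tubule factors and transporters lower 13 (in place of 20). With a robust trend they became proteasome subunits higher 8 (in place of 5), respiratory chain and ATP synthase lower 8 (in place of 4). Genes near the dim level have little signal over background, and a missed call there is no sign of an unchanged gene.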
